A study of Drosophila melanogaster with 17 samples.

Results

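The RNA of Drosophila melanogaster ovaries mutant for cutoff (cuff) was compared with that of wild-type ovaries across every protein-coding gene of the deposited RNA table, 12505 of 12505 genes. The comparison rests on 6 of the study's 17 libraries, 3 labelled wt and 3 labelled cuff, each from ovaries of about 30 females aged 2 to 4 days. Both genotypes were treated alike up to sequencing, with total RNA depleted of ribosomal RNA. The labels name neither the cuff allele nor the strain background of either genotype.

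Cuff works in the germline nucleus with Rhino and Deadlock, which bind the chromatin of piRNA clusters. The complex lets these loci be transcribed from both strands without normal promoters, splicing or termination, and the small RNAs made from them silence transposons in the ovary. Cuff itself belongs to a family of RNA 5′-end processing and decay enzymes. An ovary holds germline cells, in which nurse cells load the oocyte with maternal RNA, follicle cells that surround them and make yolk and eggshell, and a sheath of muscle.

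The files give 1 value per gene and genotype, a normalised read signal called the authors' value below, so no value carries an SD. Summed over all genes, the wild-type values came to 89336038 and the mutant values to 85598452. A gene is called higher or lower where its p was 0.05 or less in the authors' deposited table, and differences are given as log2((mutant + 1)/(wild type + 1)). Markers of the tissue were present. The germline genes vas (27695 and 30009 in wild type and mutant) and osk (113027 and 110687) had authors' values close to each other in the 2 genotypes. Of 9 germline markers 0 were higher and 1, the differentiation factor bam, was lower, with sums of 339879 and 334435. Over all genes 5.5% were called higher and 3.73% lower. Of 10 follicle cell markers 7 were higher (70%) and 0 lower (sums 386529 and 685610). Of 10 muscle markers 6 were higher (60%) and 0 lower (84170.5 and 128754). Most of the muscle sum was Tm1 (63420 and 71281), which did not pass. Of 8 hemocyte markers 3 were higher (37.5%) and 0 lower (13459.7 and 26791.8). The 3 were Pxn, Cg25C and vkg. The hemocyte sum was carried by Cg25C (3710.5 and 9486.6), vkg (4975 and 10492) and srp (4494.2 and 5777.2). The other 5, among them Hml, NimC1, eater and He, did not pass, and He lay below wild type (4.4 and 0.4). Of 8 fat body markers 3 were higher (37.5%) and 0 lower (225789 and 350043). The fat body sum was carried by the yolk protein gene Yp1, also counted among the follicle cell markers. The other 7 fat body markers summed to 69690.1 and 50187.1, a sum carried by Rfabg (67915.2 and 44920.6), which did not pass. Of these 7, 2 were called higher, Lsp2 (1109.4 and 3594) and Lsd-1 (591.3 and 1636.8). Another 4 lay below wild type, and none of those passed. Of 10 eggshell genes, which follicle cells express late in egg formation, 4 were lower and 0 higher (1123170 and 603668). Of 7 measured neuronal markers 2 were higher (4425.4 and 9600.2), of 4 measured spermathecal markers 1 was lower (8254.6 and 9807.7), and 0 of 8 measured testis markers passed. The lower spermathecal marker was Send1 (798.9 and 0.3). The spermathecal sum was carried by Hr39 (7443.6 and 9786.4), which did not pass. Gut markers lay near 0 in the mutant, with sums of 381.6 and 12.2 and 2 lower, and 6 of 8 measured lay under 10 in both genotypes. Amy-p and lambdaTry were listed at 0 in wild type. Median gene lengths were 11.9 kb for muscle, 10.8 kb for hemocyte, 27.7 kb for neuronal and 3.66 kb for follicle cell markers. Eggshell markers had 0.698 kb, against 2.39 kb over all genes. Longer genes were called higher more often (below). In whole ovaries fewer cells of a type and less RNA per cell cannot be told apart, and the part of these cell types in the differences below was not tested. The cuff transcript had authors' values of 951 and 1105, with p = 0.9 in the authors' deposited table. Without the allele this does not check the genotype.

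Of the 12505 genes 1155 were called (9.24%), 688 higher (5.5%) and 467 lower (3.73%) in the mutant. The authors' own sections list 526 genes as overexpressed in the mutant, 313 in wild type and 11666 as not differentially expressed. Their rule also asks for a 2-fold difference, so some calls made here are not among theirs. Most expressed genes differed little: of 8615 genes with a mean of both genotypes of 50 or more, 7292 (84.6%) lay within a 2-fold difference, and 296 of those were called. Beyond 2-fold, 852 of the 8615 were higher and 471 lower, of which 519 and 304 were called. The counts depend on how the deposited p is read. An earlier adjustment for multiple tests is neither stated nor denied in the file headers. Adjusted again over all genes it called 241 higher and 110 lower, and at p of 0.01 or less 418 and 231 were called.

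Genes near the floor of detection gave no calls. The median difference was positive in the classes below 1000 and near 0 from 1000 upwards. Of 2652 genes with a mean under 10, 0 were called in either direction at the deposited p of 0.05. Of 1738 genes from 10 to 100, 41 were higher and 27 lower, with a median difference of 0.52. From 100 to 1000 the 1518 genes held the densest calls, 172 higher (11.3%) and 98 lower (6.46%), with quartiles of -0.48 and 0.94 around a median of 0.13. From 1000 to 10000, 340 of 4485 were higher and 245 lower with a median of -0.09. Among the 2112 most abundant transcripts 135 were higher and 97 lower, and the quartiles narrowed to -0.31 and 0.30 around a median of -0.01.

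**Figure D1:**
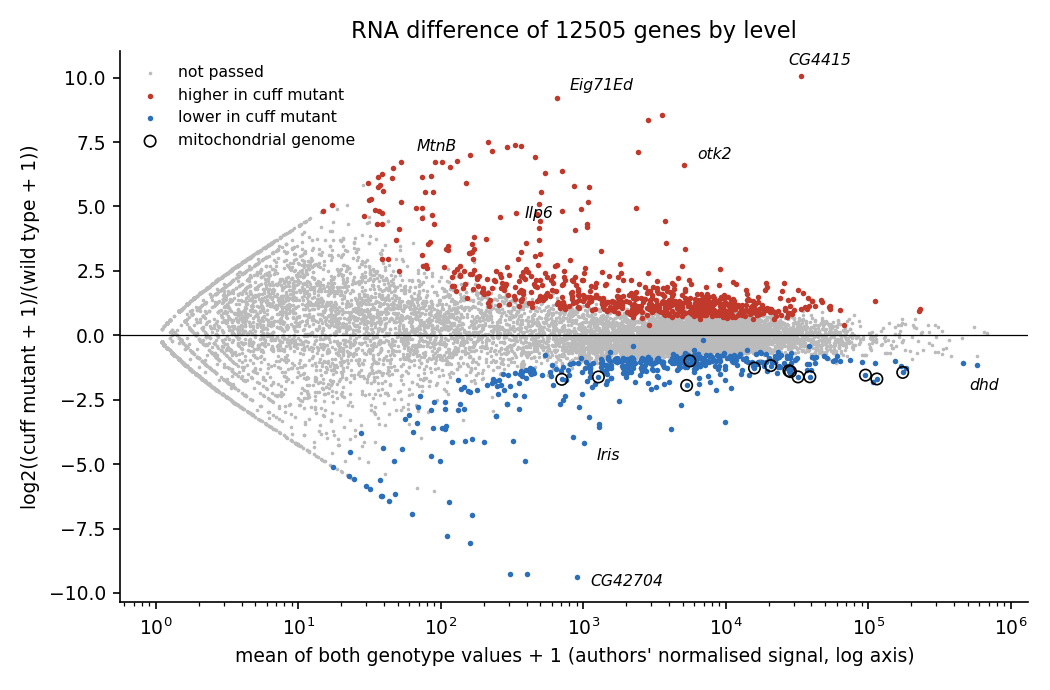
Each point is a gene, with the mean of both genotype values plus 1 on a log axis against the log2 difference of cuff mutant over wild type. Red and blue points passed p of 0.05 in the authors' deposited table, and the circled 13 genes of the mitochondrial genome all lie below 0.

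The largest differences belonged to genes nearly silent in 1 genotype. Between means of 100 and 1000 the largest rise was that of Eig71Ed, a gene induced by ecdysone in larval tissue, with authors' values of 1.2 and 1302.7 in wild type and mutant, a log2 difference of 9.21. The adhesion gene hibris (hbs), which acts in myoblast fusion, had 1.4 and 428.5, and the sodium channel auxiliary gene Teh1 had 3.5 and 731.4. CG3526 had 3 and 660.4. All 4 were near 0 in wild type and well above it in the mutant. In the other direction CG42704, the spermathecal protease gene Send1, CG31681 and CG43090 had wild-type values from 319.1 to 1817.7 and mutant values from 0 to 1.7. The short genes CG43090 and CG42704 both lie on the X chromosome.

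Between means of 1000 and 10000 the largest rises were those of CG42854, CG5111, CG43290 and CG8964 (otk2, a relative of the off-track receptor), with log2 differences from 6.60 to 8.54. Their wild-type values lay between 16.1 and 103.5. The falls in this class kept a clear mutant signal: Iris, derived from a retroviral envelope gene, fell to 103.7, CG9509 (fiz) to 201.2, the glutathione transferase gene GstE11 to 217.6 and CG34355 to 618. Above 10000 CG4415 (gNacalpha), related to the nascent polypeptide-associated complex, stood apart, with 61.8 and 67559. The next rises were 4-fold. They were the projectin gene bt (4.15-fold), the perlecan gene trol, a component of basement membrane (10028 and 41425, 4.13-fold), and kirre, which encodes an immunoglobulin adhesion protein (7538.5 and 30542, 4.05-fold). These last 3 genes span 52.1 kb, 75 kb and 394 kb. The largest falls there were CG17883 (17493 and 4235.6, 4.13-fold), CG32791 (DIP-alpha; 168260 and 47794, 3.52-fold) and mitochondrial transcripts. No source used here says how reads of overlapping genes were counted.

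**Figure D2:**
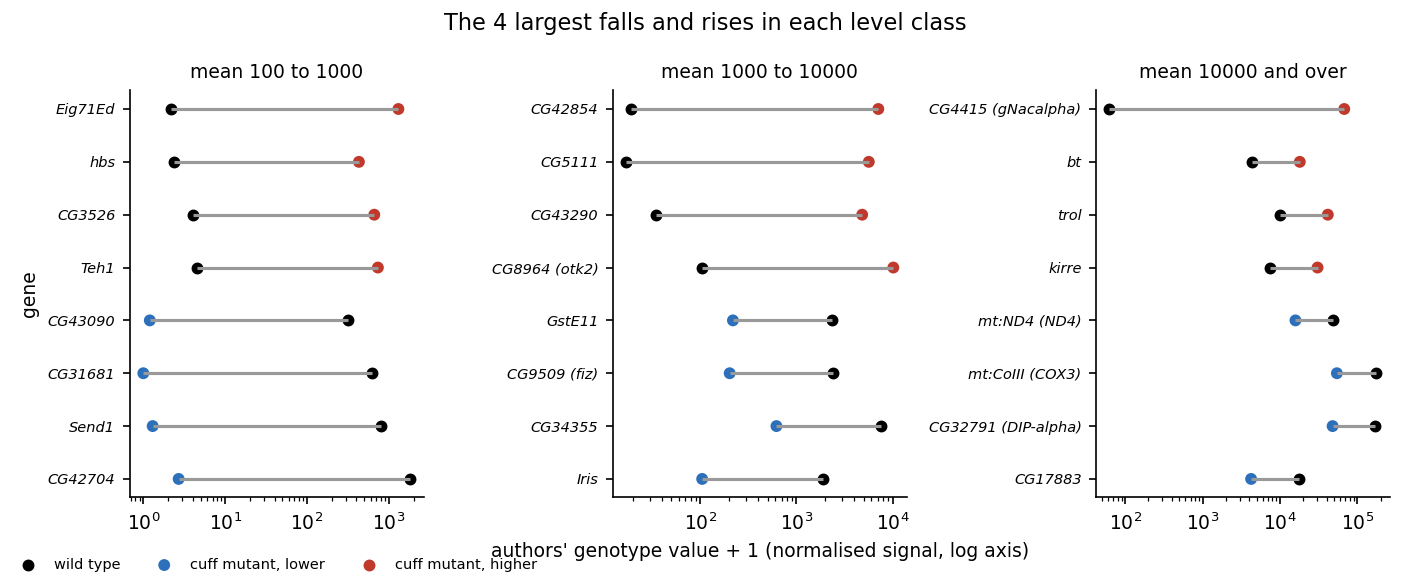
The 4 largest falls and 4 largest rises that passed, in 3 classes of the mean of both values, as the authors' genotype value plus 1 on a log axis (black wild type, red or blue cuff mutant). Below a mean of 1000 all 8 genes have 1 genotype at 3.5 or less, whereas above 10000 only CG4415 starts at a wild-type value under 100.

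Transcripts of the mitochondrial genome were lower as a group. This small genome encodes 13 proteins of the respiratory chain and is transcribed as long precursors that are cut into single messengers. Of its 13 genes 12 were called lower and 0 higher, against 3.73% lower over all genes, and the median difference was -1.55 against 0.02 over all genes. The cytochrome oxidase gene mt:CoI went from 255455 to 94101 (2.71-fold lower) and mt:CoIII from 175841 to 54294 (3.24-fold lower). The cytochrome b gene mt:Cyt-b went from 58708 to 19220 (3.05-fold lower). Among subunits of complex I, mt:ND5 went from 142584 to 48809 (2.92-fold lower) and mt:ND4L from 8448.4 to 2191.8 (3.85-fold lower). The ATP synthase subunits mt:ATPase6 and mt:ATPase8 were 2.59-fold and 2.41-fold lower. The exception was mt:ND2, with 7462.7 and 3742.7 and p = 0.06 in the authors' deposited table. The 13 genes held 0.932% of the summed values in wild type and 0.341% in the mutant. Since they come from 1 genome and shared precursors, they are not 13 independent measurements. With p adjusted again mt:ATPase8, mt:ND3 and mt:ND5 no longer passed. These genes are short, at most 1.72 kb. Among genes under 2 kb 5.61% were called lower, and 4.71% without these genes and the histone copies (below). The part of length in their fall was not tested.

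**Figure D3:**
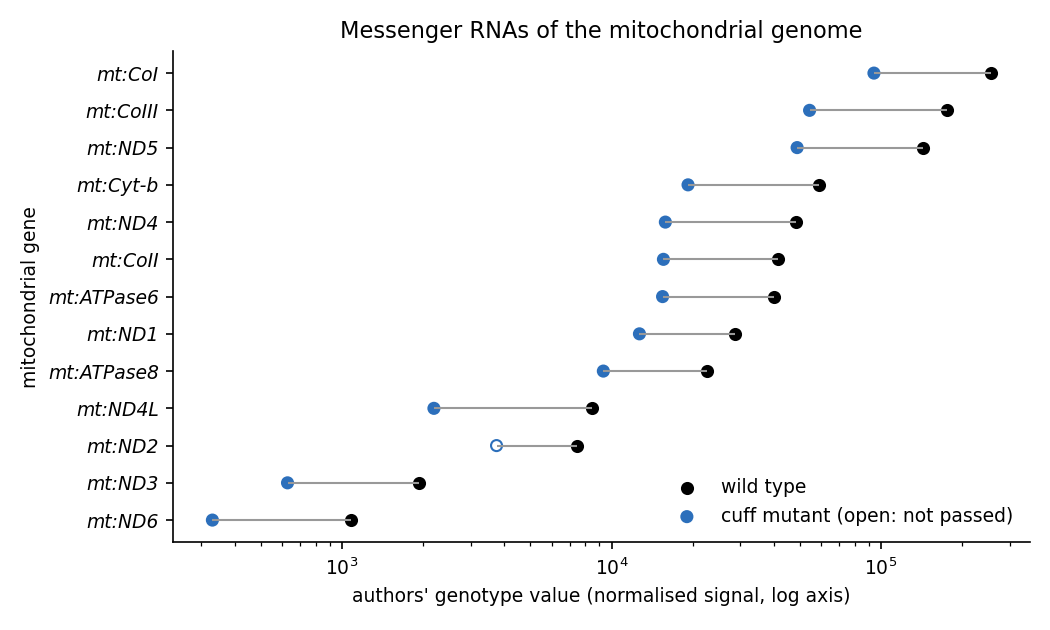
Authors' values of the 13 genes of the mitochondrial genome on a log axis, with black points for wild type and blue points for the cuff mutant; the open point, mt:ND2, did not pass. Every gene lies to the left of its wild-type value, from 1.99-fold lower (mt:ND2) to 3.85-fold lower (mt:ND4L).

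Nuclear genes of the same complexes moved less. Of 86 nuclear genes of oxidative phosphorylation 3 were lower (3.49%, against 3.73% of all genes). Another 1 was higher (1.16%, against 5.5%) and 82 did not pass, with a median of -0.29 over the 86. The 3 lower genes all encode subunits of complex I: CG40002 (ND-AGGG; 9114.6 and 3999.2), CG3683 (ND-19; 2487.5 and 1244.5) and CG32230 (ND-MLRQ; 40249 and 20632). None of the 3 remained with p adjusted again. Of the 38 nuclear complex I genes 31 had a value below wild type, with a median of -0.32. The 1 gene that rose was CG31477 (ATPsynepsilonL), annotated as an ATP synthase epsilon paralog, from 15.8 to 1391.7. Abundant members such as ATPsyn-beta (172216 and 123699), CG1746 (ATPsynC; 145700 and 193284) and CG11455 (95261 and 76128) did not pass. Of 17 genes of mitochondrial import 1 was lower, the inner membrane translocase gene CG40042 (Tim23), from 32759 to 14016. Of 14 genes of the tricarboxylic acid cycle 1 was higher, citrate synthase kdn (4680.1 and 7988.5). None of the 14 glycolysis genes passed in the authors' deposited table, although 11 lay below wild type with a median of -0.46; Gapdh2 had 91301 and 51630 with p = 0.06 in that table. Among 30 genes of the vacuolar ATPase 1 was higher, Vha68-1 (121.7 and 318.9). None of Tim23, kdn and Vha68-1 remained called with p adjusted again.

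Genes of DNA replication were called in the lower direction. Of 38 members 5 were lower (13.2%, against 3.73% of all genes) and 0 higher, the median was -0.47 and 33 of the 38 lay below wild type, against 6096 of 12505 genes in all. The large subunit of ribonucleotide reductase, RnrL, which makes deoxynucleotides, went from 34734 to 16696 (2.08-fold lower). The helicase subunit Mcm3 went from 11399 to 5702.6 (2-fold lower), and the GINS subunit Psf2 from 2339.4 to 1138.6 (2.05-fold lower). The origin recognition genes lat, which encodes Orc3, and Orc6 went from 9188.8 to 4877.7 and from 11021 to 6437.2. Other abundant members did not pass, as Mcm10 (63456 and 63520), RnrS (49902 and 30034) and Mcm5 (28686 and 19006). With p adjusted again 0 of the 5 remained called.

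Other cell cycle lists held few calls. Of 28 measured genes of kinetochore, cohesin and condensin 3 were lower (10.7%, against 3.73% of all genes) and 0 higher: the securin gene pim (16466 and 7423.3, 2.22-fold lower), the centromeric histone gene cid (3629.9 and 1917.4) and the kinetochore gene Mis12 (3877 and 2043.9). Their list had a median of -0.14. Of 37 cyclins, kinases and checkpoint genes 2 were lower (5.41%, near the 3.73% of all genes) and 0 higher. They were cort, a female-specific activator of the anaphase-promoting complex (6655.5 and 3743.5), and png, a kinase subunit needed for maternal RNA translation at egg activation (9778.9 and 5752.3). The cyclin genes CycA (305682 and 288294) and CycB (152985 and 156742), of high level, did not pass, nor did the checkpoint kinase gene grp (122418 and 71277). None of these calls remained with p adjusted again.

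In the machinery of gene expression, chromatin genes that were called all lay higher. Of 41 chromatin remodelling and heterochromatin proteins 9 were higher (22%, against 5.5% of all genes) and 0 lower, with a median of 0.28. The acetyltransferase gene nej went from 12936 to 35125 (2.72-fold), the remodeller kis from 63723 to 158399 (2.49-fold) and the histone H3 lysine methyltransferase gene Set2 from 7192.7 to 16053 (2.23-fold). The Brahma complex genes brm and osa, the methyltransferase gene trx, the demethylase gene lid and Su(var)2-HP2, whose product binds HP1, rose between 0.78 and 1.03 on the log2 scale. The ninth, HP6, had 0.6 and 62.3. Of the members that did not pass, those of highest level lay on both sides: dom (58985 and 101206), Mi-2 (51915 and 67287) and the HP1a gene (57144 and 36129). With p adjusted again, kis and nej remained. The median length of these genes was 5.75 kb, against 2.39 kb over all genes, and longer genes were called higher more often (below).

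Lists of translation, ribosome assembly, nuclear pore, insulator and sex determination genes held between 0 and 2 calls each. Their shares called higher ran from 0% to 11.8%, against 5.5% of all genes. Of 52 translation factors 2 were higher, both of the cap-binding machinery: eIF4G2 (9607.6 and 20340) and the cap-binding repressor 4EHP (8393 and 17356). The elongation factors Ef1alpha48D (628545 and 681822) and Ef2b (488387 and 618563) did not pass. None of 34 aminoacyl tRNA synthetases was called at the deposited p of 0.05, and their median was 0.00. Of 18 genes of ribosome assembly and RNA polymerase I 1 was higher, the nucleolar protein gene Nopp140 (14191 and 26646). Of 21 nuclear pore genes 2 were higher, Nup154 (6447.3 and 12862) and Nup358 (43111 and 84211). None of 11 insulator genes passed; su(Hw), which also acts in the female germline, had 45667 and 30800 with p = 0.07 in the authors' deposited table. Of 17 genes of sex determination and dosage compensation 2 were higher, the sex-specific transcription factor gene dsx (512.5 and 1710.1, 3.34-fold) and vir, a cofactor of Sex-lethal splicing (1548 and 3430.7). Sxl itself had 26984 and 30960 and did not pass. Of the genes called in these lists, dsx alone remained with p adjusted again.

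Lists of protein folding, turnover and membrane traffic held at most 2 calls each, beside 5.5% higher and 3.73% lower over all genes. None of the 8 chaperonin genes, 27 ubiquitin conjugation genes or 35 Rab GTPase genes passed at the deposited p of 0.05. Their medians were 0.06, -0.16 and 0.08. Of 30 genes of ER translocation and coat proteins 1 was higher, the coat gene Sec13 (3621.3 and 6355.7). Of 21 autophagy genes 1 was higher, Atg2 (5310 and 9897.8), and 1 lower, CG8678 (Atg18b; 25872 and 14224). Of these 3, none passed with p adjusted again.

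Calls among motor and cytoskeleton genes were few. Of 29 measured kinesin and dynein genes 2 were higher (6.9%, against 5.5% of all genes) and 1 lower (3.45%, against 3.73%). All 3 encode parts of cytoplasmic dynein. The heavy chain gene Dhc64C went from 33721 to 73479 (2.18-fold higher) and the intermediate chain gene sw from 1828.9 to 3808 (2.08-fold higher). The light chain gene robl went from 6484.4 to 2571.7 (2.52-fold lower). Dhc64C spans 18.3 kb and robl 0.658 kb. The sw gene has near-identical neighbouring copies, the Sdic genes, so its value is uncertain. Of 15 measured tubulins and actins 2 were higher (13.3%), betaTub60D (5014 and 11037) and the cytoplasmic actin gene Act42A (11182 and 21480). With p adjusted again, robl alone of these 5 remained called. Act5C (272397 and 342142) did not pass, and actin genes resemble each other enough for reads to be divided between them.

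Cell contact genes that were called mostly lay higher. Of 22 septate junction genes 4 were higher (18.2%, against 5.5% of all genes) and 0 lower, with a median of 0.32. The 4.1 protein gene cora went from 1582.1 to 5709.3 (3.61-fold), and the neuroglian gene Nrg from 5028.4 to 12858 (2.56-fold). bou (3137.2 and 6700) and Fas3, a follicle cell marker (6088.1 and 12028), made up the 4. Of 25 cadherins and polarity genes 1 was higher, Cad99C, which shapes follicle cell microvilli (15085 and 28257), and 1 lower, the catenin gene p120ctn (84866 and 42540). Of these cell contact genes, cora and Nrg alone remained called with p adjusted again. The lists have median lengths of 8.62 kb and 19.3 kb. These calls stand beside the higher follicle cell and muscle markers given above.

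Surface proteins known from neurons were largely at low level, with the called members mostly higher. Of 54 genes of the dpr, DIP, beat and side families 6 were higher (11.1%, against 5.5% of all genes) and 1 lower, with 13 at a mean of 50 or more. CG31646 (DIP-theta) had 2.7 and 581.1, beat-IIIc 363.6 and 1416.3, dpr6 1684.9 and 6109.9, dpr8 175.9 and 578.5, and CG42596 (dpr21) 255.6 and 741.2. CG40378, with 168.4 and 1093.4, is 1 of 3 older gene models now joined as DIP-lambda. The 1 lower gene was DIP-alpha, given above. Of 47 ion channel genes 3 were higher (6.38%, near the 5.5% of all genes) and 0 lower: the acetylcholine receptor subunit nAcRalpha-34E (30.2 and 287.2), the calcium channel gene Ca-alpha1T (98.3 and 355) and the cation channel gene trpm (4961 and 14633, 2.95-fold). Still called with p adjusted again were DIP-theta, CG40378, beat-IIIc, dpr6, DIP-alpha, nAcRalpha-34E and trpm. The medians of these 2 lists, 1.03 and 0.87, stand beside median lengths of 37.9 kb and 17 kb.

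Of 27 measured insulin and TOR genes 3 were higher (11.1%, against 5.5% of all genes) and 1 lower (3.7%, against 3.73%). The insulin-like peptide gene Ilp6, known in flies from fat body and glia, went from 97.6 to 1653.5 (16.9-fold). ImpL2, whose product binds and antagonises insulin-like peptides, went from 570.7 to 2297.2 (4.03-fold). The kinase gene S6k had 7680.8 and 12573. Ilp7 went the other way, from 251.2 to 55.9 (4.49-fold lower). Of these 4, Ilp6 alone remained with p adjusted again.

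Other pathways with calls had long genes. Against the 5.5% of all genes called higher, the share was 40% of the clock list, 12.5% of the Hippo list, 21.4% of the JNK list and 3.33% of the patterning list. Of 10 clock genes 4 were higher and 0 lower: tim (3017.1 and 6306.4), vri (1024.1 and 2163.6), Clk (448.5 and 1021.9) and cwo (7285.7 and 14215). All 4 lay between 1.95-fold and 2.28-fold higher, and none remained with p adjusted again. Of 16 Hippo pathway genes 2 were higher, the upstream activators kibra (2410.6 and 7954.3, 3.30-fold) and ex (1370.3 and 3177.1), and 1 was lower, the myosin gene d, known as dachs (2834.3 and 1309.6). Of 14 JNK pathway genes 3 were higher: the Fos gene kay (2873.2 and 7600.6, 2.65-fold), slpr (10672 and 19273) and Rac1 (5092.2 and 8944.7). Of 30 measured embryonic patterning factors 1 was higher, the Hox gene abd-A (114 and 638.4). The maternal patterning gene bcd had 4434.9 and 4774 and cad 8926.1 and 10473, and neither passed. Of the Hippo, JNK and patterning calls, kibra, kay and abd-A remained with p adjusted again. Median lengths of the clock, Hippo and JNK lists were 9.79 kb, 7.13 kb and 7.99 kb.

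Metabolic genes held single large differences. The share called higher was 6.9% of the redox list and 3.57% of the lipid list, against 5.5% of all genes. Called lower were 6.9% of the redox, 3.57% of the lipid and 6.67% of the peroxisome list, against 3.73% of all genes. Of 29 redox and metal genes 2 were higher, the metal-binding metallothionein genes MtnB (2.2 and 450.9) and MtnA (1286 and 3517.6), and 2 lower. The lower pair were the extracellular superoxide dismutase gene Sod3 (18744 and 7374.2, 2.54-fold lower) and dhd, a thioredoxin loaded into the egg. dhd was among the most abundant transcripts of the ovary and went from 806423 to 358328 (2.25-fold lower). Of 28 lipid genes 1 was higher, the lipase gene Lip4 (4747.1 and 18935, 3.99-fold), and 1 lower, the fatty acid synthase gene v(2)k05816 (FASN2; 6622.2 and 3951.4). Of 15 peroxisome biogenesis genes 1 was lower, Pex11 (7841.2 and 3836.1), and 13 lay below wild type. Among the metabolic genes called, MtnB, Sod3 and Lip4 remained with p adjusted again.

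Secreted protein families known from other tissues differed in level and held few calls. Of cuticle genes 2.67% were higher and 1.33% lower, of odorant-binding genes 0% and 2.63%, against 5.5% and 3.73% of all genes. Of 75 cuticle protein genes 4 had a mean of 50 or more. Cpr72Ec was higher (27.9 and 181.4), Cpr30B lower (150.5 and 19.3), and Cpr49Ab was listed at 0 in wild type and at 75.1 in the mutant. Of 38 odorant-binding protein genes 1 was lower, Obp99c (451 and 101.4). None of 27 serpins or 25 seminal fluid proteins was called at the deposited p of 0.05. A mean of 50 was reached by 13 of the serpin genes and 0 of the seminal fluid genes. Cpr49Ab and Cpr72Ec alone of these families remained called with p adjusted again.

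**Figure D4:**
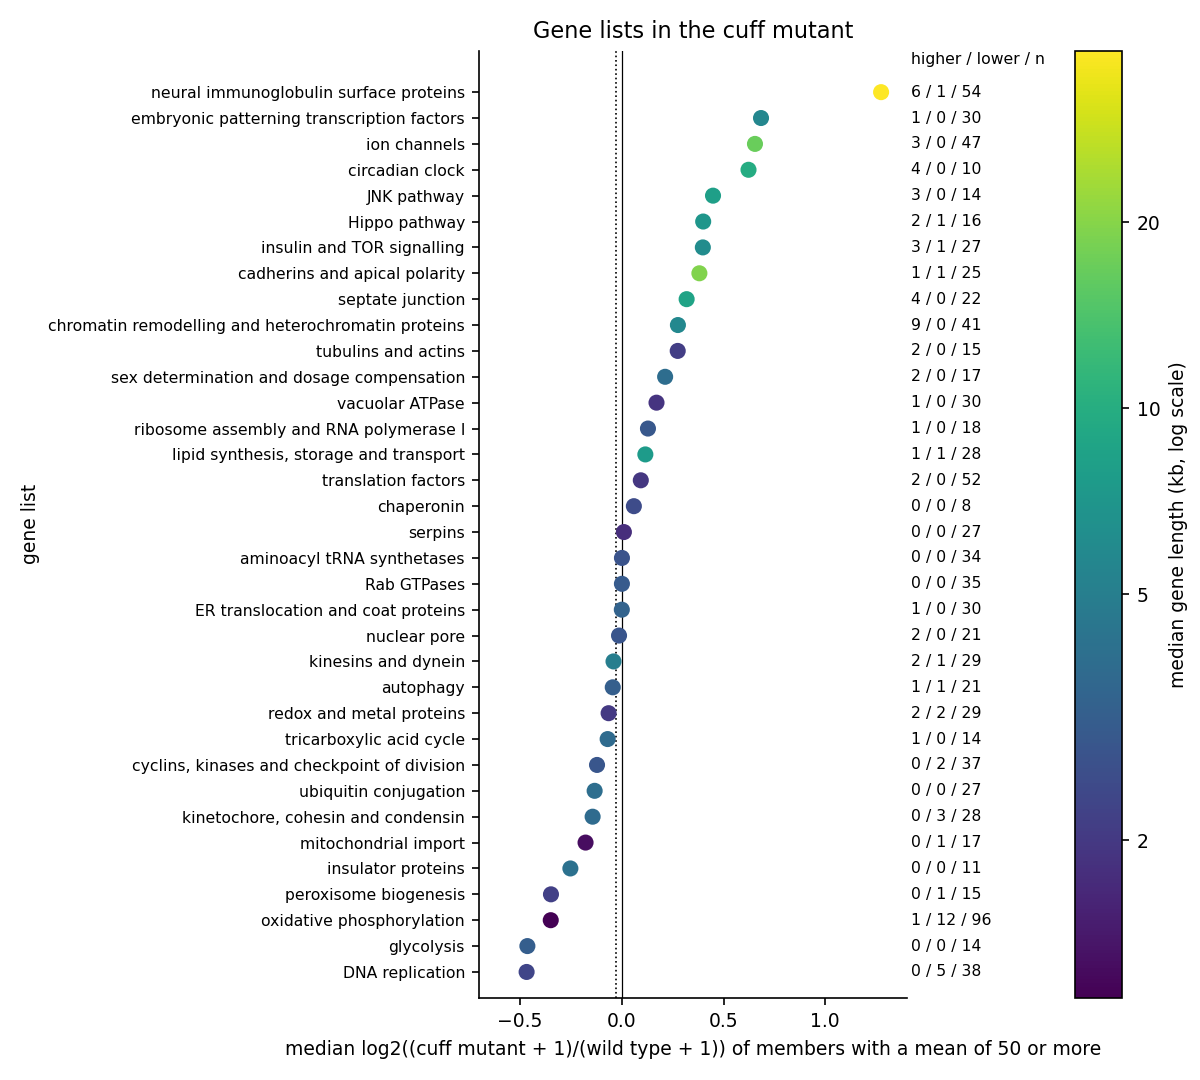
Median log2 difference of the members with a mean of 50 or more, for each gene list with at least 8 such members, coloured by the median gene length of the list. Counts at the right give members called higher, called lower and measured; the dotted line at -0.03 is the median of all 8615 genes at that level. Lists of long genes lie to the right and DNA replication, glycolysis and oxidative phosphorylation to the left. The 96 oxidative phosphorylation genes include genes of the mitochondrial genome. The 86 nuclear ones hold 3 of the 12 lower calls.

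Over the 38 lists together 57 of 1107 genes were higher (5.15%) and 35 lower (3.16%), shares near those of all genes. In 14 lists the calls were only in the higher direction, in 6 only lower, in 10 in both, and 8 lists held no call.

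Gene length went with the direction of change in each class of level with calls from 100 upwards. Of 2913 genes of 6 kb and over 453 were higher (15.6%, against 5.5% of all genes) and 52 lower (1.79%, against 3.73%). Of 5243 genes under 2 kb 96 were higher (1.83%) and 294 lower (5.61%). Repeated histone copies and mitochondrial genes made up 53 of the 294, and without them 96 of 5119 short genes were higher and 241 lower. Between means of 1000 and 10000 the median was -0.34 in 1730 short genes, -0.02 in 1767 genes of 2 to 6 kb and 0.48 in 944 long genes. Above 10000 the medians were -0.28, -0.07 and 0.24. Between 10 and 100 the medians were 0.33, 0.39 and 0.96, and 30 short genes were higher against 15 lower. Lengths are those of the current annotation.

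**Figure D5:**
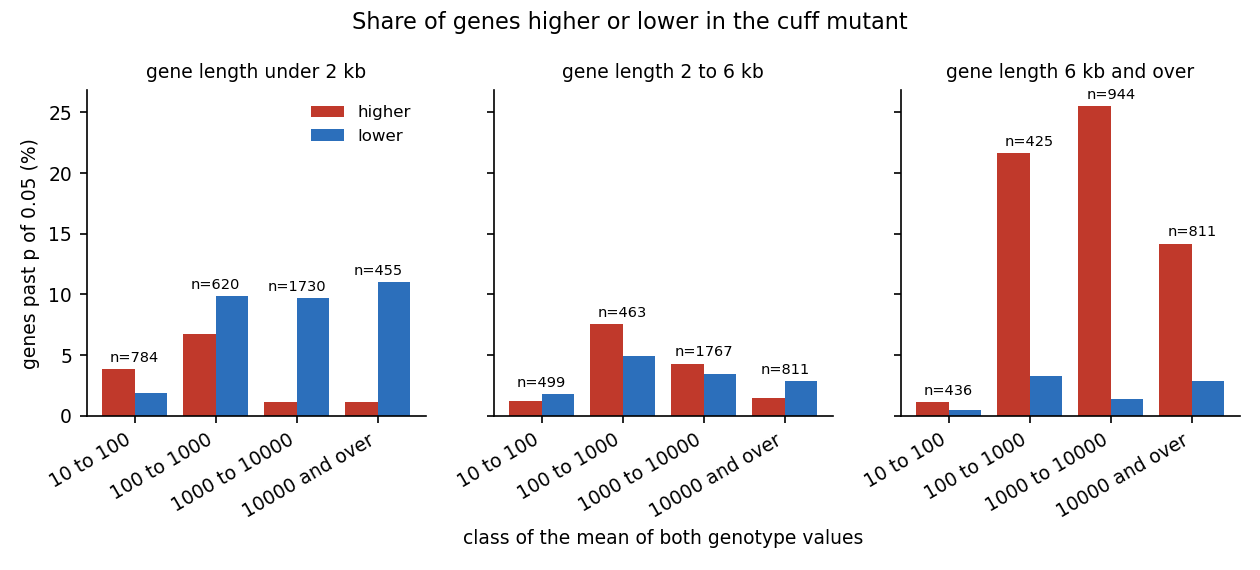
Percent of genes called higher (red) or lower (blue) in the cuff mutant, by class of the mean of both values, in 3 panels of gene length; n is the number of genes in each class. Blue exceeds red in short genes from a mean of 100 upwards, and red reaches 25.5% in long genes between 1000 and 10000.

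By chromosome, the X held 139 higher (6.94%, against 5.5% of all genes) and 50 lower (2.5%, against 3.73%) of 2004 genes. The left arm of the second chromosome held 124 higher (5.34%) and 148 lower (6.38%) of 2320. The other large arms held between 127 and 151 higher and between 74 and 88 lower. Part of the difference on 2L lay in the repeated histone unit. Of 111 copies of the H1, H2A, H2B, H3 and H4 genes 41 were lower (36.9%, against 3.73% of all genes) and 0 higher. They were 22 of 23 H2B copies and 19 of 23 H3 copies. H3 copies had authors' values from 504.7 to 648.3 in wild type and from 204.2 to 254.6 in the mutant. Copies are near-identical in sequence, so the 41 are not 41 measurements. Without them 107 of 2209 genes on 2L were lower. On the X, genes under 2 kb divided into 28 higher and 29 lower, while on the other large arms, histone copies left out, 14 to 20 short genes were higher and 45 to 67 lower. Genes of 6 kb and over were mostly higher on each of these 5 arms, 88 against 5 on the X and 80 against 15 on 2L. No test between arms was made.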

How the data were processed

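Ovary RNA of 3 wild-type and 3 cuff mutant samples was analysed. Per the submitters' processing notes, cutadapt 1.2.1, TopHat2 2.0.8, SAMtools 0.0.19 and DESeq 1.16.0 are among the tools named, with build dm3; which made which step, the annotation, and whether counting used strand are not given in the sources used here. Per the file headers, the table is DESeq output with pooled dispersions taken from a parametric curve (fit only). Level and size of difference alone do not set the deposited p, however. In the authors' deposited table NaCP60E (mean 17735, log2 difference -1.09) had p = 0.9 and pim (mean 11944, log2 difference -1.15) had p = 0.003. How far p follows the spread between the libraries of a gene is thus unknown. The deposited genotype values are a normalised signal, 1 per genotype, taken to be averaged size-factor-scaled counts. The authors' log2 fold change was used only to check direction, which differed for 0 genes. The deposited p-value has 1 significant digit, and 40 are listed at 0. Depth per library is unknown.

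With python 3.11.15 and pandas 2.3.3, log2((mutant + 1)/(wild type + 1)) was computed for all genes of all sections. Calls use the deposited p-value at 0.05. Current symbols, chromosome and gene length for 12378 of 12505 genes came from a RefSeq table of assembly Release 6. Genes were classed by the mean of both values at 10, 100, 1000 and 10000 and by length at 2 and 6 kb. Named genes were the 4 largest called rises and falls per level class from 100, up to 4 called and 3 abundant uncalled members per list (further called members were named after their values were seen), and cuff. The groups, members and 38 lists were chosen with earlier results of these data known; the mitochondrial, histone and chromosome 4 genes and those listed at 0 were singled out after their values were seen. Lists are described by counts and medians without a test. The script was run on wild-type values with planted folds and preset p-values. That checks its arithmetic only and cannot test the calls.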

Additional observations from a re-analysis of the deposited data

How the results depend on the processing

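No paired analysis was possible because the table holds 1 value per genotype; for the same reason leaving out replicates was not run. The counts of 688 higher and 467 lower genes became 418 and 231 at p of 0.01 or less, and 241 and 110 with the deposited p adjusted again (Benjamini-Hochberg), where the largest p that passes in the authors' deposited table is 0.001; if that p was already adjusted, this is too strict. On chromosome 4 the adjustment, chosen after seeing the data, turned 3 higher and 7 lower into 2 and 1. A 2-fold minimum and a mean of at least 50 kept both counts within 1.5 times. So did leaving out histone copies and the mitochondrial genome, chosen after seeing the data. Rescaling to equal totals (a shift of 0.06) and centring on expressed genes (0.03) kept the deposited p and could only turn directions. Both counts stayed at 688 and 467, which is no check of the calls. A set of 119 called genes was followed, picked by level class, list, mitochondrial genome, chromosome 4 or a value of 0. Other called list members and cell type markers named above are not all among them. Of the 119, 59 no longer passed with p adjusted again. At p of 0.01 33 no longer passed, and with a 2-fold minimum 26. Direction could not change under these settings, which use the same differences. The small shifts of the scaling alternatives turned none of the 119. The median of genes with a mean under 10 was 0.36, and 0.515 with a pseudocount of 0.1 and 0.0566 with 10. That of genes from 10 to 100 was 0.52, and 0.39 with a pseudocount of 10. On rescaling to equal totals the median of genes from 1000 to 10000 went from -0.09 to -0.03. That of genes from 10000 upwards went from -0.01 to 0.05, so its sign turned. Of 38 list medians 6 moved by over 0.1 with a pseudocount of 10 and 6 with a mean of at least 50, and of 15 medians by length and level 4 moved with a pseudocount of 10. Arm medians moved by 0.1 or less when genes with a mean under 50 were left out. Medians of nuclear pore, autophagy, ER and coat, and kinesin lists, all within 0.06 of 0, changed sign on rescaling, and that of odorant-binding proteins went from 0.18 to -0.50 with a mean of at least 50. The spread between libraries and the depth of each library limit every value and could not be assessed.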

Other observations

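On chromosome 4, a small and largely heterochromatic chromosome, 3 of 77 genes were higher (3.9%, against 5.5% of all genes) and 7 lower (9.09%, against 3.73%). With p adjusted again 2 were higher (bt and Sox102F) and 1 lower (toy), so the direction of the counts turned. The transcription factor gene toy, known from eye development, went from 610.7 to 34.4 (17.8-fold lower), and the glutamate receptor gene mGluRA from 553.7 to 153.1. Genes of high level there that were lower include pho, which encodes a DNA-binding Polycomb protein (40525 and 21270), and Arf102F (39239 and 18636). Sox102F went from 2286.4 to 9147.8 (4-fold higher), like bt. The median of the 77 genes was -0.14, and their median length of 9.75 kb puts them among the longer genes, which elsewhere were more often higher than lower.

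A value of 0 in 1 genotype was listed for 1240 genes, 591 of them in wild type (median of 1.6 in the mutant) and 649 in the mutant (median of 1 in wild type). Of these 6 and 8 reached 50 in the other genotype. The highest were CG31681 (610.9 in wild type), CG17475 (219.7 in wild type) and CG11231 (123.1 in wild type), all listed at 0 in the mutant, and CG3251 (103.8 in the mutant), listed at 0 in wild type. By the deposited p, 7 of the 591 and 11 of the 649 were called, a smaller share than the 9.24% of all genes called in either direction.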
